A study of Mus musculus with 4 samples.

Results

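The genes described here make, break down, carry and sense retinoic acid, a signalling molecule derived from vitamin A. They are 9 in number, named by symbol and not by any measured value: Aldh1a2 for synthesis, Cyp26a1, Cyp26b1 and Cyp26c1 for breakdown, Crabp1 and Crabp2 for binding in the cytoplasm, and the receptor genes Rara, Rarb and Rarg. For each gene, every ATAC-seq peak that came within 100 kb of one of its start sites was taken, and each peak is called a region. This gave 161 of the 99427 regions in the E10.5 list and 70 of the 37548 in the E11.5 list, and 9 of 21536 protein-coding genes with a located start site. ATAC-seq cuts open chromatin with the Tn5 transposase and sequences the fragments, so a region marks DNA that was accessible in part of the cells.

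The cells came from pooled fore- and hindlimb tissue of wild-type mouse embryos at E10.5 and E11.5 (embryonic days), with 2 samples per stage. The titles give the earlier stage as E10.5 and the treatment protocol as E10, and the cells were fixed with paraformaldehyde before transposition. No strain, sex or number of embryos was given in the sources used here. There is 1 peak list per stage, named for both of its samples, so no value has a spread between replicates, no stage difference could be tested, and the depth behind each list is unknown. Each region carries a signal value, a total over its width that rises with that width, and the smallest in either list is just above 200. Ranks below are by signal value within 1 list, where rank 1 is the highest.

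Retinoic acid is made by retinaldehyde dehydrogenases, of which Aldh1a2 serves the embryonic trunk and flank beside the limb bud. Enzymes of the CYP26 family oxidise and so clear it, and Cyp26b1 is known for doing this in the distal limb bud, which keeps the proximal marker genes Meis1 and Meis2 out of the tip. Retinoic acid receptors bind DNA with a retinoid X receptor partner at repeated half-sites. The repeats near Rarb and Cyp26a1 are textbook examples, since retinoic acid switches on both genes.

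Of 5 markers of limb mesenchyme (Prrx1, Prrx2, Twist1, Msx1 and Tbx15), all 5 had a region within 1 kb of the start site in both lists, against 68.5% of all protein-coding genes in the E10.5 list and 62.6% in the E11.5 list. Of 5 markers of each other cell type, the E10.5 and E11.5 lists had a promoter region for 4 and 2 of ectoderm, 2 and 1 of endothelium, 2 and 3 of blood, 5 and 3 of muscle precursors, 5 and 3 of neurons, and 1 and 0 of liver. The liver markers Alb, Afp, Ttr and Hnf4a had none in either list. In such a mixture, fewer cells of a type and less open chromatin per cell cannot be told apart.

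Promoter sequences were at hand for 8 of the 9 genes, and Crabp2 was the exception. They come from RefSeq on GRCm38.p6, whose coordinates are those of mm10, and each runs from 250 bases before a listed start site to 50 bases after it, 5′ to 3′ on the gene's strand. Direct repeats of a receptor half-site were searched on both strands, the half-site being AGGTCA or AGTTCA or GGGTCA or GGTTCA. With a spacing of 5 bases (DR5), the repeat was found in 32 of 32851 promoter windows of the table, or 0.0974%. Of the 12 windows that belong to these genes, 2 held it, those of Rarb and Cyp26a1. Repeats with a spacing of 1 or 2 bases (DR1, DR2) were in 0.222% and 0.268% of all windows and in none of the 12. A match is a run of letters and not a measured site. The promoters of Rarb (chr14:16575427-16575726, minus strand) and Cyp26a1 (chr19:37697558-37697857, plus strand) are shown with the DR5 in capitals, which allows the repeat to be set against the regions described below.

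Rarb: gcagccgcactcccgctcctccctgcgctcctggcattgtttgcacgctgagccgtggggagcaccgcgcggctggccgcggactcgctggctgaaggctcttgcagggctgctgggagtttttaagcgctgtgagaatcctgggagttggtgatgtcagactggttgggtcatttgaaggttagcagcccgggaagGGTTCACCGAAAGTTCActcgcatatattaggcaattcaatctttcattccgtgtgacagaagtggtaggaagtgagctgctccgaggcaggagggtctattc

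Cyp26a1: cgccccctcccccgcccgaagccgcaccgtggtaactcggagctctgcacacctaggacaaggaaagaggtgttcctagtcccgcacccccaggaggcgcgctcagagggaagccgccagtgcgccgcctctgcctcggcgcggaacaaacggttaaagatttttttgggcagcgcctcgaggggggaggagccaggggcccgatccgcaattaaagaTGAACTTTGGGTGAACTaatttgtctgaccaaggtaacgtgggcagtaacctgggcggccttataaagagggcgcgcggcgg

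The Rarb repeat (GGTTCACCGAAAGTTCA, chr14:16575513-16575529) lies 37 bases before the start site and inside a region in both lists. The Cyp26a1 repeat reads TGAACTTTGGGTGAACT on the gene's strand, the reverse orientation, and lies 16 bases before the listed start site (chr19:37697776-37697792). This is 38 bases past the outer end of the gene (37697738), so the repeat lies within the gene span. The repeat is inside a region in the E10.5 list and outside any region in the E11.5 list. Both repeats were thus in accessible DNA at E10.5, and the Rarb repeat also in the E11.5 list.

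The promoters of Cyp26b1 (chr6:84593761-84594060, minus strand) and Aldh1a2 (chr9:71215539-71215838, plus strand) are shown for the contrast in how much of them the lists cover. In Cyp26b1 the capitals mark a TATAAA box, a sequence in 8.32% of all windows. In Aldh1a2 they mark CG dinucleotides.

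Cyp26b1: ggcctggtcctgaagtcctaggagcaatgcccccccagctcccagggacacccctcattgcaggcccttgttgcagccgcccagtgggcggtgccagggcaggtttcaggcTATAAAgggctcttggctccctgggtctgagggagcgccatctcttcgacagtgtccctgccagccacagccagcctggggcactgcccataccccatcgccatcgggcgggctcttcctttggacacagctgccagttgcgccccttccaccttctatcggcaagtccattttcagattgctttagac

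Aldh1a2: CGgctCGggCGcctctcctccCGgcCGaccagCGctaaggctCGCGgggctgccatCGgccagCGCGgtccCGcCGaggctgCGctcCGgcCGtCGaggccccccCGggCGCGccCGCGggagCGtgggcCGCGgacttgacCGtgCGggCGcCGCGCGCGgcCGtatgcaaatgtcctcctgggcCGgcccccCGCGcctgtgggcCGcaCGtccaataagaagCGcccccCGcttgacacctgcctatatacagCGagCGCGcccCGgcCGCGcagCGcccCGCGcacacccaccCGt

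No base of the Cyp26b1 window was covered in either list. Its TATAAA box lies 134 bases before the listed start site and 36 bases before the outer end of the gene. All 300 bases of the Aldh1a2 window were covered in both lists. That window had 50 CG dinucleotides and 78.0% G and C, against a median of 7 and 52.7% over all windows of the table. The Rarb window was also covered over all 300 bases in both lists. The Cyp26a1 window was covered over 274 bases at E10.5 and over none at E11.5, and the Cyp26c1 window over none in either list.

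All 9 genes had a promoter region, one within 1 kb of a start site, in the E10.5 list, where 68.5% of all protein-coding genes did. In the E11.5 list 6 of 9 did, against 62.6% of all genes. The 3 without one were the 3 breakdown genes, Cyp26a1, Cyp26b1 and Cyp26c1. Of all genes with an E10.5 promoter region, 9.20% lacked one in the E11.5 list. The E10.5 list is the longer one, and with only its strongest regions kept, as many as the E11.5 list has, Cyp26a1 and Cyp26b1 lacked a promoter region there too. With −log10 p of 5 or more required, Cyp26b1 lacked one at E10.5, and Aldh1a2 and Crabp1 joined the 3 breakdown genes at E11.5. Cyp26b1 and Cyp26c1 stood near the 1 kb limit. The E10.5 region of Cyp26b1 lay 0.822 kb from the start site, and that of Cyp26c1 0.670 kb, while the nearest E11.5 region to Cyp26c1 lay 1.35 kb away and would count with a limit of 2 kb. With a region required to span the start site itself, 7 genes had one at E10.5 (all but Cyp26b1 and Cyp26c1) and the same 6 as above at E11.5. For these alternative settings no share of all protein-coding genes is at hand.

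**Figure D1:**
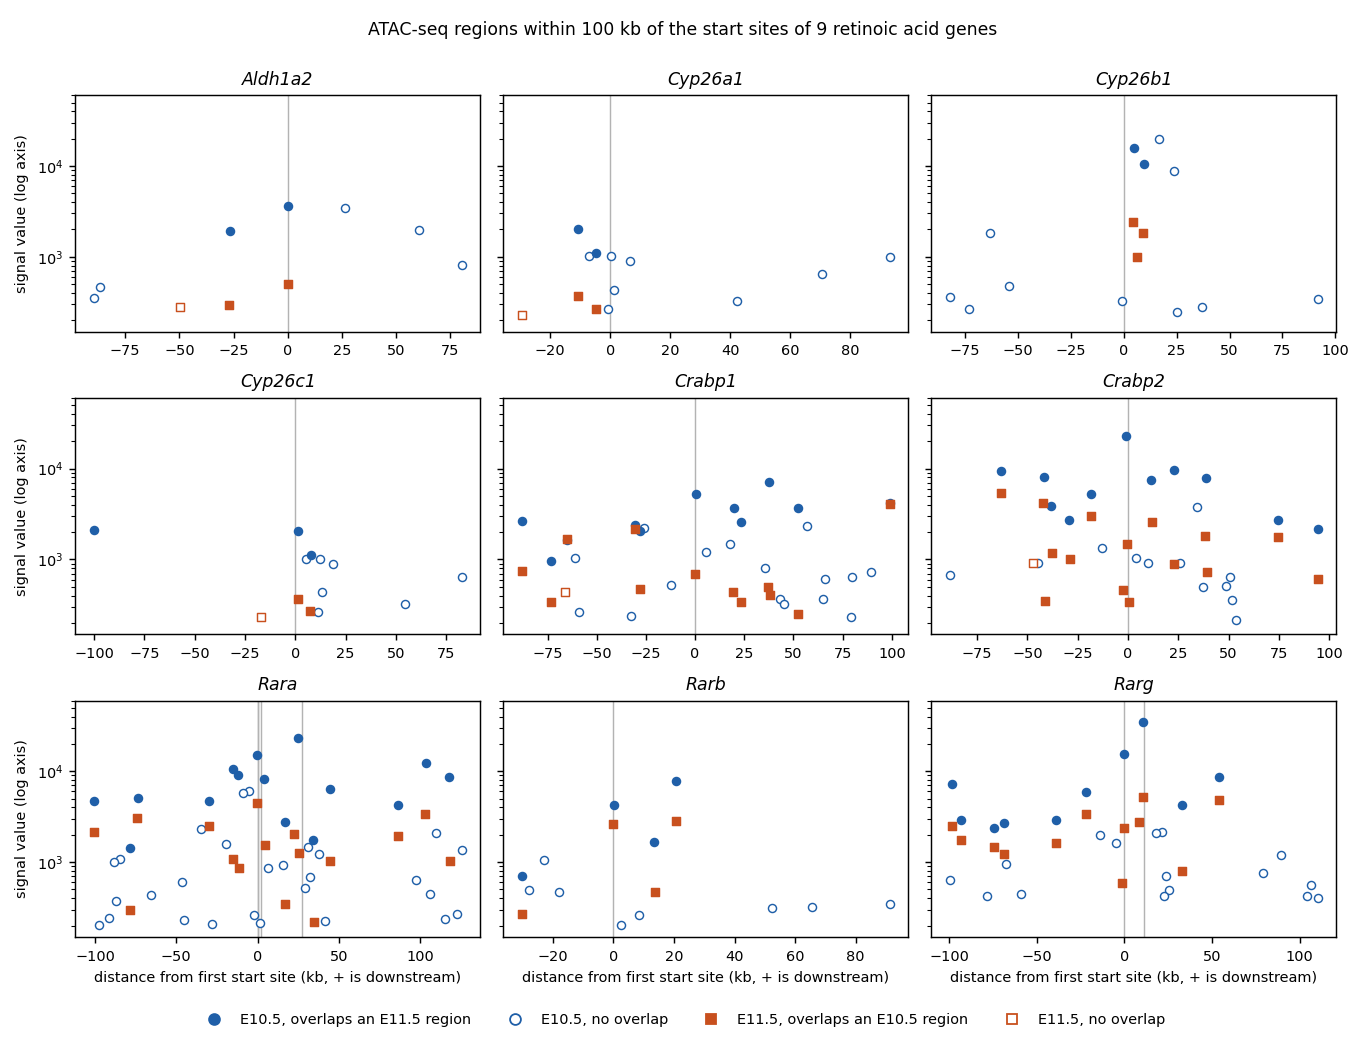
Signal value (log axis) of every region within 100 kb of a start site, against the distance of its middle from the gene's first start site in kb, with positive values downstream. Circles are E10.5 regions, squares E11.5 regions, filled where the other list has an overlapping region, and grey lines mark start sites. The strongest E10.5 region lies at or within the gene for Aldh1a2, Cyp26b1, Crabp2, Rara, Rarb and Rarg, and Cyp26a1 and Cyp26c1 have no region above a signal of 2119.

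Aldh1a2, which encodes the retinaldehyde dehydrogenase that makes retinoic acid in the early embryo, lies at chr9:71215789-71296243 on the plus strand. Its promoter region at E10.5 (chr9:71215028-71216720) had a signal of 3620 and rank 15071. The overlapping E11.5 region (chr9:71215217-71216289) had a signal of 498.9, rank 22932, and the lowest signal per bp of any E11.5 promoter region of the 9 genes, 0.465. The promoter was therefore listed at both stages, and stood in the weaker part of the E11.5 list.

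Within the gene, 25.8 kb and 60.4 kb downstream of the start site, the E10.5 list held regions with signals of 3466 and 1962 (chr9:71241626-71242674 and chr9:71276173-71276783). Neither had an overlapping E11.5 region. In the 10% stretch of the E10.5 list by signal that holds the stronger one, 70.4% of regions over 1 kb from any start site overlapped an E11.5 region. In the stretch that holds the weaker one, 47.0% did, so a missing partner was not rare at these signals. The stronger and the weaker region had −log10 p values of 9.43 and 8.61, against 7.39 for the promoter. Another distal region, 26.3 kb upstream and over Gm32511, was in both lists with signals of 1911 and 297.4. The only E11.5 region of this window without an E10.5 partner lay over Aqp9, an aquaporin gene, at chr9:71166118-71166353 with a signal of 281.0. In all, the window held 7 E10.5 regions and 3 E11.5 regions.

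Cyp26b1, the CYP26 enzyme gene of the distal limb bud, stood apart from the other breakdown genes at E10.5. Its gene spans chr6:84571414-84593908 on the minus strand, and 4 E10.5 regions overlapped it, with no gap over 317 bp between them. Together they ran from 84568995 to 84591331 and covered 86.0% of the gene. At E11.5, 3 regions covered 24.4%. Crabp2, Rara and Rarg were also widely covered, over 60.9, 59.4 and 60.0% at E10.5 and 11.1, 15.2 and 20.7% at E11.5. Every other gene described here was likewise covered less at E11.5 than at E10.5. The median protein-coding gene was covered over 3.96% at E10.5 and 1.73% at E11.5. Coverage of at least that of Cyp26b1 was seen in 1.18% of all genes at E10.5 and in 5.02% at E11.5. Among genes of 15 to 30 kb, a range chosen after the Cyp26b1 value was seen, it was the single gene of 4212 that reached 86.0% at E10.5, and 12 reached 24.4% at E11.5. This coverage is a description, since the width of the Cyp26b1 regions was known beforehand.

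The widest of the 4, chr6:84571925-84582446, was 10522 bp long with a signal of 20044 and rank 140. It lies in the part of the gene far from the start site and had no E11.5 overlap. Measures that do not sum over the width placed this region lower, at rank 26568 by −log10 p and 34354 by signal per bp. The best E10.5 ranks of the gene on these measures, 4169 and 8672, belonged to other regions. The adjoining region across the gene's far end, chr6:84568995-84571607, had a signal of 8846 and rank 2785 and had no E11.5 overlap either. The 2 regions nearer the start site, at chr6:84586481-84591331 and chr6:84582565-84586348, had signals of 15729 and 10520 and ranks 380 and 1623. Both were found again at E11.5. The first overlapped 2 E11.5 regions, chr6:84588550-84590603 (signal 2442, rank 8753) and chr6:84587022-84588116 (997.9), and the second overlapped chr6:84583429-84585766 (1850, rank 10976). The E11.5 regions of the gene thus fell within the 2 start-side E10.5 regions, and the far side of the gene was without a region.

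Regions with a signal value as high as these, a total that rises with width, were seldom without a partner. Among E10.5 regions over 1 kb from any start site in the top 10% of the list by signal, 91.1% overlapped an E11.5 region. Of the 14 such regions near the 9 genes, 10 did (71.4%, 95% Wilson interval 45.4 to 88.3%). The 4 that did not were these 2 at Cyp26b1 and 2 at the outer part of Rara, so they belong to 2 loci and are not independent of each other. Their ranks by −log10 p were 26568 and 17292 at Cyp26b1, and 35050 and 17267 at Rara. By signal per bp they were 34354 and 8672, and 26009 and 42313. Of these ranks only 8672 lies in the top 10% of the list. No share with a partner is at hand for these 2 rankings. The Rara region chr11:98927298-98930792 spans the outer end of that gene (98927800), which is not among its listed start sites. It would be a promoter region if the outer end were used as the start site. The start site of Cyp26b1 itself was the weak point of the locus in both lists. Its single promoter region at E10.5 (chr6:84594632-84595057) had a signal of 325.5 and rank 81455, and of all promoter regions in that 10% stretch of the E10.5 list 19.5% overlapped an E11.5 region.

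**Figure D2:**
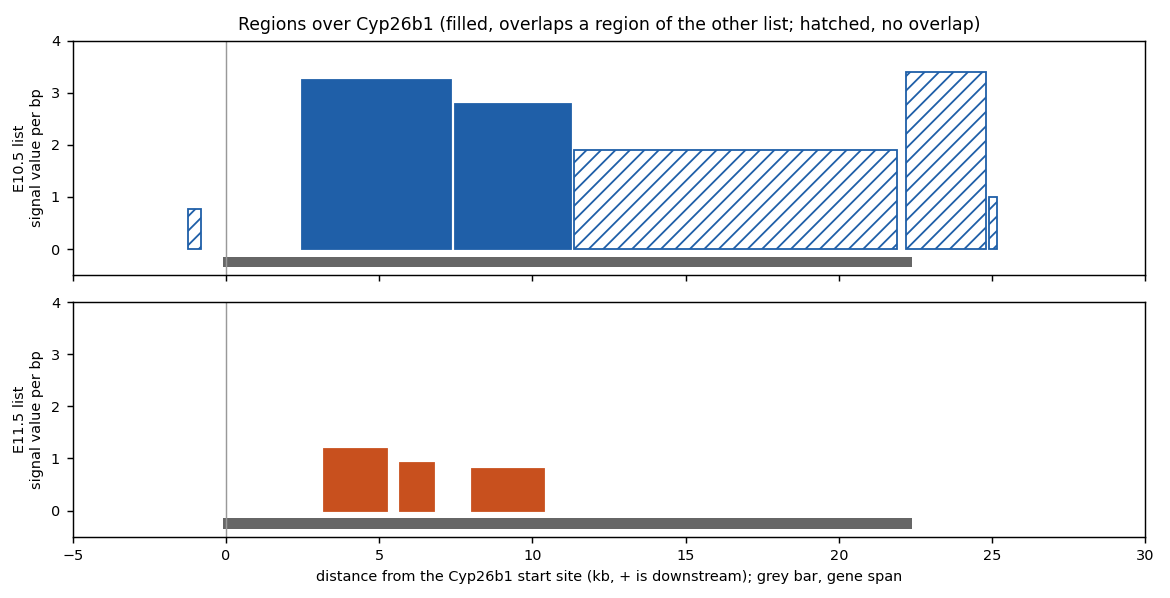
Regions around Cyp26b1 in the E10.5 list (upper panel) and the E11.5 list (lower panel), drawn to scale against distance from the start site in kb, with bar height the signal value per bp and the grey bar the gene. The 4 E10.5 regions over the gene cover 86.0% of it and the 3 E11.5 regions cover 24.4%, all on the side nearer the start site.

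Cyp26a1 and Cyp26c1, the other CYP26 genes, are neighbours on chromosome 19 (chr19:37697738-37701536 and chr19:37685112-37693320, both on the plus strand), and their windows share most regions. The start of Cyp26a1 was covered at E10.5 by chr19:37697584-37698655, with a signal of 1015 and rank 44006. Flanking regions within 1 kb had signals of 435.7 and 266.3. None of the 3 had an E11.5 partner. In the same 10% stretch of the E10.5 list as the strongest of them, 51.2% of promoter regions overlapped an E11.5 region.

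The strongest region between the 2 genes' starts was chr19:37686350-37687798, the promoter region of Cyp26c1, with a signal of 2046 and rank 26051. It overlapped the E11.5 region chr19:37687026-37687349 (signal 369.4, rank 27113). A region over the end of Cyp26c1, 4.23 kb upstream of the Cyp26a1 start site, was also in both lists with signals of 1107 and 267.6. Another, chr19:37690319-37691111 in Cyp26c1, was at E10.5 only with 1019. At the border of the window, 99.7 kb upstream of Cyp26c1 in Exoc6, a region had signals of 2119 and 351.7. The E11.5 region without an E10.5 partner also lay in Exoc6, an exocyst gene (chr19:37668247-37668589, signal 230.9). The pair had no region in the top 10% of either list, and its strongest signals were below those of Cyp26b1 within each list.

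Crabp1 and Crabp2 encode small cytoplasmic proteins that bind retinoic acid, and CRABP2 is known for handing it to the receptors. Both promoters had regions in both lists. The Crabp1 promoter region had a signal of 5306 and rank 8802 at E10.5 (chr9:54763915-54766543), and 686.8 and rank 19276 at E11.5 (chr9:54764480-54765091). The Crabp2 promoter region was 6365 bp wide at E10.5 (chr3:87944438-87950802), with a signal of 22870 and rank 86. In the E11.5 list 3 narrower regions lay inside it, the strongest being chr3:87947533-87948773 with a signal of 1481 and rank 12679, and their signals summed to 2289. A second of them within 1 kb of the start site, chr3:87948958-87949394, had 341.2. By signal each list thus ranked the Crabp2 promoter above that of Crabp1.

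Distal regions were many around both genes. For Crabp1 the E10.5 list held 26 and the E11.5 list 12, and for Crabp2 22 and 14. Over all protein-coding genes the median was 9 and 4, and 6.85% and 10.2% of genes reached the numbers of Crabp1, and 13.0% and 6.37% those of Crabp2. Promoter regions of other genes made up 3 and 4 of the distal regions near Crabp1, and 8 and 7 of those near Crabp2. Counting the promoter too, Crabp2 was the nearest start site for 3 of 23 regions at E10.5 and 3 of 16 at E11.5. The strongest E10.5 region of the Crabp1 window was distal, between genes 36.0 kb downstream of the start site (chr9:54800780-54804026, signal 7198, rank 4800). It overlapped 2 E11.5 regions, with signals of 503.6 and 403.7 that summed to 907.3. A region 51.7 kb downstream, also between genes, had signals of 3703 and 253.5. Regions 18.9 and 22.7 kb downstream, again between genes, had 3666 and 2579 at E10.5 and partners of 438.2 and 341.1. Promoters of neighbouring genes made up the 3 strongest distal regions of the E11.5 list here. That of Ireb2, 98.4 kb downstream, had signals of 4166 and 4044, that of Wdr61 2420 and 2165, and that of Dnaja4 1633 and 1676.

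Because the lists differ in length, order was compared only over the regions that both lists held. Among the 11 such regions of the Crabp1 window, the 36.0 kb region was in place 1 at E10.5 and in place 6 at E11.5, and the Crabp1 promoter in places 2 and 5. The Ireb2, Wdr61 and Dnaja4 promoters held places 3, 8 and 10 at E10.5 and 1, 2 and 3 at E11.5. In the Crabp2 window, also with 11, the Crabp2 promoter was in place 1 at E10.5 and in place 7 at E11.5. The promoter of Nes, the gene of the intermediate filament nestin, went from place 2 (chr3:87969982-87973387, signal 9641) to place 10 (897.5). Those of Prcc (9514 and 5360) and Hdgf (8108 and 4138) held places 3 and 4 at E10.5 and 1 and 2 at E11.5. These places use the signal total and the E11.5 partner with the most overlap, and wide E10.5 regions gain from their width. With the signals of all E11.5 partners summed, the 36.0 kb region was in place 4 at E11.5. The Crabp1 and Crabp2 promoters were then each in place 6 of their window. By signal per bp the Crabp2 promoter was in place 5 and then 9, and the Crabp1 promoter in place 9 and then 6, the opposite direction. On that measure the Ireb2 and Wdr61 promoters held places 1 and 2 at both stages, and the Dnaja4 promoter places 11 and 5. The 36.0 kb region was in places 7 and 9. In the Crabp2 window the Nes promoter was in places 7 and 11, that of Prcc in 2 and 1, and that of Hdgf in 6 and 2. No spread between samples was at hand for these places.

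**Figure D3:**
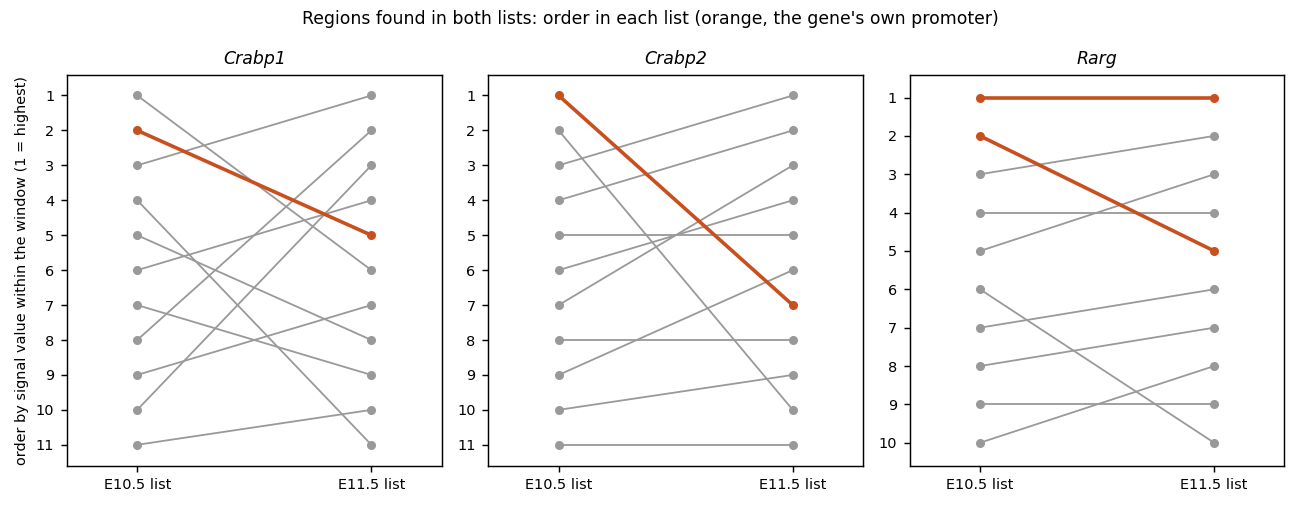
Order by signal value (1 is the highest) of the regions found in both lists within 100 kb of Crabp1 (11 regions), Crabp2 (11) and Rarg (10), with each line joining an E10.5 region to its E11.5 partner and the gene's own promoter in orange. The own promoters stand in places 1 or 2 at E10.5 and in places 1 to 7 at E11.5. By signal per bp they stand in places 5 to 9 at E10.5, and the Crabp1 promoter moves the other way. The Rara window is not drawn, and by signal value its own promoter regions stand in places 1, 2 and 7 at E10.5 and 6, 1 and 8 at E11.5.

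Regions in the E11.5 list only were few here. That of the Crabp1 window lay 66.1 kb upstream, within 1 kb of the Dnaja4 start site (chr9:54698368-54698638, signal 436.1). That of the Crabp2 window lay between genes 47.0 kb upstream (chr3:87901136-87901656, signal 920.8). With those near Aldh1a2 and Cyp26c1 they were the 4 E11.5 regions without a partner among all 70. The receptor genes had none.

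At E10.5 the 2 strongest regions of the 9 genes were at the receptor genes Rarg and Rara. Rarg, whose receptor is abundant in cartilage-forming tissue, lies at chr15:102234938-102257522 on the minus strand with 2 listed start sites. The region over the inner start site, chr15:102242502-102250819, was 8318 bp wide with a signal of 35166 and rank 20 at E10.5. At E11.5 its strongest partner, chr15:102245490-102248255, had a signal of 5151 and rank 2628, the highest of that window. The region over the outer start site had signals of 15511 (rank 403, chr15:102254904-102260083) and 2402 (rank 8900, chr15:102257127-102258611). Among the 10 regions of the window found in both lists, the inner promoter was in place 1 each time. The outer one was in places 2 and 5, or 2 and 4 with the signals of all E11.5 partners summed. By signal per bp they stood in places 5 and 6 at E10.5 and 8 and 9 at E11.5.

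Rara, the most widely expressed receptor gene, lies at chr11:98927800-98974942 on the plus strand with 4 listed start sites. The E10.5 region over the last of them (chr11:98959010-98966459) was 7450 bp wide with a signal of 23171 and rank 82. The region over the first 2 (chr11:98935927-98938941) had a signal of 15110 and rank 436. At E11.5 the order by signal was the reverse. The region over the first 2 start sites (chr11:98935971-98938613) was the strongest of the window, with a signal of 4533 and rank 3558. No E11.5 region covered the last start site. Inside the E10.5 region around it lay 2 E11.5 regions, chr11:98959513-98961043 with a signal of 2033, and chr11:98962790-98964078, 0.794 kb upstream of the start site, with 1252. Their sum of 3285 was still below 4533. By signal per bp the region over the first 2 start sites exceeded those around the last at both stages. The values were 5.01 against 3.11 at E10.5, and 1.72 against 1.33 and 0.971 at E11.5. Among the 15 regions of the window found in both lists, it was in places 2 and 4 by that measure. The region around the last start site was in places 8 and 9. The start site at 98939711 was covered by a weak E10.5 region (215.2, rank 96711) and by none at E11.5. A region starting 0.319 kb past it (chr11:98940030-98943236) had a signal of 8180 and rank 3476, and its E11.5 partner 1530.

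Upstream of the listed start sites and overlapping the gene's outer part, 2 E10.5 regions of the top 10% by signal had no E11.5 partner. They were chr11:98930938-98933677 and chr11:98927298-98930792, with signals of 6076 and 5833. The latter spans the outer gene end, 98927800, which is not a listed start site. Regions 10.7 and 13.9 kb upstream, the first between genes and the second in Cdc6, had signals of 9110 and 10564 at E10.5 and 863.4 and 1070 at E11.5. The Igfbp4 promoter, 74.7 kb downstream, had 12448 and 3352. Rara had the most distal regions of the 9 genes in the E10.5 list, 39, and shared the highest number in the E11.5 list, 14, with Crabp2. Its 4 start sites widen the window, and 0.720% and 6.37% of all genes reached these numbers. The E11.5 regions of Wipf2 and Cdc6 promoters, 73.2 and 29.3 kb upstream, had signals of 3061 and 2523 and were among the 3 strongest distal ones of that list.

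Rarb, itself induced by retinoic acid, had a quieter neighbourhood in which its own regions led. The region over the listed start site, which holds the DR5 shown above, had a signal of 4270 at E10.5 (chr14:16574654-16575943). Its rank was 12303, in the top 12.4% of that list. The E11.5 region (chr14:16574890-16576101) had a signal of 2602 and rank 8242, in the top 22.0% of the shorter list. A stronger region lay in the gene 19.6 kb downstream, chr14:16553943-16555897, with a signal of 7778 and rank 3965, and its E11.5 partner had 2837 and rank 7554. Another, 13.0 kb downstream, had signals of 1662 and 470.2. All 4 E11.5 regions of the window had E10.5 partners, in the same order of signal in both lists. By signal per bp the promoter was in place 2 at E10.5 and in place 1 at E11.5.

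The gene table gives Rarb a span of 651 kb, chr14:16430839-17082331, whose outer end lies 507 kb from the listed start site. The whole span held 34 regions of the E10.5 list and 12 of the E11.5 list, and 22 and 8 of them lay beyond the 100 kb window. No region came within 1 kb of the outer end in either list, and the nearest was 29.4 kb away at E10.5 and 29.5 kb at E11.5. The promoter region of Rarb was thus at the listed start site in both lists.

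**Figure D4:**
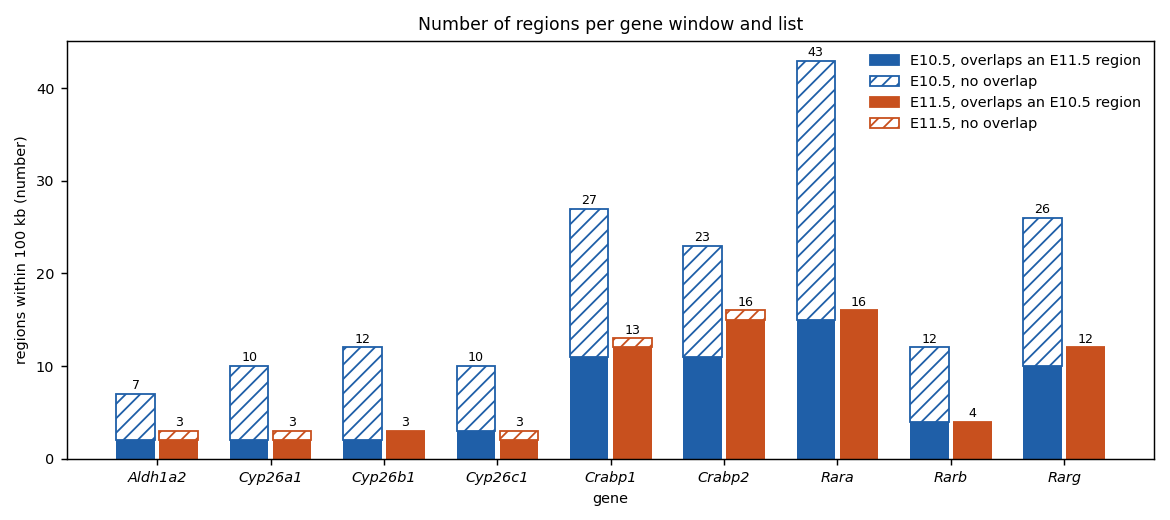
Number of regions within 100 kb of the start sites of each gene, with 1 bar per list. Solid parts overlap a region of the other list and hatched parts do not, and the number above each bar is its total. Rara leads the E10.5 list with 43 regions, Aldh1a2 has the fewest with 7, and the E11.5 bars are solid but for 1 region at each of Aldh1a2, Cyp26a1, Cyp26c1, Crabp1 and Crabp2, the region at Cyp26a1 and Cyp26c1 being the same one.

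Over all 9 genes, 58 of 161 E10.5 regions (36.0%, 95% Wilson interval 29.0 to 43.7%) overlapped an E11.5 region, and 66 of 70 E11.5 regions (94.3%, 86.2 to 97.8%) overlapped an E10.5 region. The whole lists gave 32.3% and 91.6%, and both intervals include these values. The intervals cover counting error only and treat regions as independent. E10.5 regions with a partner had a median signal of 4294, and those without 614.1. Per gene, the E10.5 list held a median of 11 distal regions and the E11.5 list 3, where all protein-coding genes had medians of 9 and 4. Of the 146 distal E10.5 regions 26 were promoter regions of another gene, as were 23 of the 61 at E11.5, and for 55 and 21 the nearest start site was that of one of the 9 genes.

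Of 18 further genes of the pathway, 17 had a promoter region in both lists, where 68.5% and 62.6% of all protein-coding genes did. With −log10 p of 5 or more required, 11 of the 18 had one at E11.5. No share of all genes is at hand for that setting, and the 62.6% does not apply to it. Among the genes of vitamin A handling, the promoter of Rdh10, which makes the retinaldehyde that Aldh1a2 uses, had signals of 13214 (rank 735) and 11080 (rank 143). That of Dhrs3, which reduces retinaldehyde back to retinol, had 17475 (rank 242) and 9134 (rank 341). The other retinaldehyde dehydrogenase genes stood lower, with 751.8 and 233.9 for Aldh1a1 and 2377 and 448.5 for Aldh1a3. The receptor partner genes Rxra, Rxrb and Rxrg had 13753, 6195 and 4054 at E10.5 and 2458, 3749 and 1860 at E11.5. The proximal limb genes Meis1 and Meis2 had promoter regions in both lists.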

How the data were processed

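Accessible chromatin was measured in 4 samples, 2 at E10.5 and 2 at E11.5, grouped by their titles. The authors deposited 1 narrowPeak list per stage. The submitters' processing notes name the build mm10 and the tools cutadapt, Bowtie2, SAMtools, deepTools and Genrich, without roles. The peak caller's settings, any Tn5 shift and the joining of replicates are not given in the sources used here. The deposited signal value (column 7) and the deposited −log10 p are the authors', and depth is unknown. The q-value column holds -1 throughout.

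Start sites came from the RefSeq promoter table (GRCm38.p6) for 17492 genes, and for 4044 from the outer gene end, with strand from GENCODE M1 by symbol. Overlap means at least 1 bp. Distances run to the nearest base of a region, and promoter regions lie within 1 kb. For exons and introns no mm10 annotation was used. Intervals are 95% Wilson intervals. Python 3.11.15, pandas 2.3.3 and scipy 1.17.1 were used, and the overlap code was tested on simulated data. The text names every promoter region of the 9 genes, the 3 strongest distal regions per gene and list where they add to the account, and every E11.5 region without a partner. Further pathway genes were to be named where a list lacked them, which is not reported here, and those named were chosen after their values were seen. Genes and lists were chosen with earlier results of these data known. Alternatives covered the threshold, list length, promoter and window size, overlap, ranking and start sites.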

Additional observations from a re-analysis of the deposited data

How the results depend on the processing

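No paired analysis was possible because the peaks of a stage stand in a single list with no values per sample, which also prevented leaving a sample out. Over 10 results and 11 alternative settings, 33 values kept to their criterion (a factor of 1.5 for a count, the 95% interval for a share) and 11 moved. A minimum −log10 p of 5 left 91 distal regions in the E10.5 list and 35 in the E11.5 list. Then 100% of E11.5 regions had a partner, and 11 of 18 further pathway genes had an E11.5 promoter region. Under that setting Aldh1a2 and Crabp1 also lacked an E11.5 promoter region, and Cyp26b1 an E10.5 one. With the E10.5 list cut to the length of the E11.5 list, 66 distal E10.5 regions were left and 72.4% of E10.5 regions had a partner. There, Cyp26a1 and Cyp26b1 lacked a promoter region in both lists. A window of 50 kb held 80 distal E10.5 regions, and counting only regions nearest to one of the 9 genes left 55 and 21. Fewer regions follow from the construction of these settings. A reciprocal overlap of 50% lowered the shares with a partner to 17.4% at E10.5 and 40.0% at E11.5. Chosen after seeing the data, a promoter limit of 2 kb gave Cyp26c1 an E11.5 promoter region, and the outer gene end as only start site took that of Rara and Rarb away, with 4 genes left at E11.5. Depth limits every count, and no share over all genes or whole lists is at hand for the alternative settings.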
